A study of Mus musculus with 15 samples.

Results

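The genes described here are 9 components and regulators of the complement system: C1qa, C1qb, C1qc, C1ra, C4b, C3, Cfd, C7 and Serping1. They were chosen by name, with earlier results of these data known. All 9 had values, out of 12391 named genes. All 9 passed the filter on low values, at least 0.5 FPKM in at least 5 libraries, as did 12267 genes in all. RNA was sequenced from whole hearts of male C57BL/6 mice after rRNA depletion. The 15 libraries formed 3 groups of 5. The AngII+QDG group received AngII by infusion, that is angiotensin II, the blood-pressure-raising peptide of the renin system, together with QDG, an agent known here only by those letters. The AngII group was infused with AngII alone, and the Control group carried neither label. Doses, durations and ages were not given in the sources used here, and nothing beyond the libraries' labels ties a library to a cage, day or batch. The p-values for group differences below set each difference against the spread between these samples. A cage, day or batch that went with a group could not be told apart from its treatment.

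Complement is a cascade of plasma and tissue proteins that marks microbes, immune complexes and dying cells. The classical pathway starts when C1q, a hexamer built from the chains encoded by C1qa, C1qb and C1qc, binds its target and activates the proteases C1r and C1s, which cleave C4. The alternative pathway is driven by factor D, encoded by Cfd, and all routes meet at C3, whose cleavage leads to the membrane attack complex that contains C7. C1 inhibitor, encoded by Serping1, blocks C1r and C1s. In most tissues C1q is made by macrophages, while the liver supplies most plasma C3 and C4 and adipocytes are a main source of factor D in mice.

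Each value is the FPKM (fragments per kilobase of transcript, per 1000000 fragments) of a gene's listed Ensembl transcripts, summed. It is a level per transcript length, so levels can be set beside each other between genes. Low values were multiples of a library-specific step; taking each step as 1 fragment puts depth between 51.6 and 78.3, in units of 1000000 fragments. Heart muscle was present in the libraries: all 8 cardiomyocyte markers had values, and their summed level was 21092 to 37324 FPKM in AngII+QDG, 28436 to 32028 in AngII and 27006 to 35792 in Control. In bulk RNA of this kind, fewer cells of a type and less RNA per cell cannot be told apart.

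The Control libraries stood apart in their balance of short and long transcripts, which touches every comparison with Control below. The mean log2(FPKM + 1) of coding transcripts under 1000 nt minus that of coding transcripts of at least 3000 nt was 0.81 ± 0.10 in AngII+QDG, 0.84 ± 0.07 in AngII and 1.20 ± 0.18 in Control (SD, n = 5 each). The difference from Control was -0.39 for AngII+QDG and -0.35 for AngII (exact two-sided permutation tests, p = 0.00794 each, adjusted p = 0.0238 over 9 tests of library measures). The share of transcripts listed at 0 was 5.53 ± 0.77% in AngII+QDG, 5.94 ± 0.96% in AngII and 12.1 ± 5.19% in Control. It reached 20.6% in Control 5. In that library 19 transcripts with at least 10 FPKM in every other library were listed at 0, among them a transcript of the cardiac myosin gene Myh6. No other library had more than 2. Without Control 3 and Control 5 the differences in balance from Control were -0.27 for AngII+QDG and -0.23 for AngII, with an adjusted p of 0.0536 each by the same permutation tests. With 3 Control libraries against 5 there are 56 arrangements, so the smallest p they can give is 0.0179, and both values were at that floor: Control 1, Control 2 and Control 4 still lay above every AngII+QDG and AngII library. Effects of the libraries and of the treatments on a comparison with Control cannot be told apart where the balance moves with both.

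The chains of C1q are encoded side by side on chromosome 4 of GRCm38, all on the minus strand. C1qb lies at chr4:136880129-136886187, C1qc at chr4:136889804-136893065 and C1qa at chr4:136895917-136898803, per GENCODE M21. The gaps are 3616 nt between C1qb and C1qc and 2851 nt between C1qc and C1qa, and the whole cluster spans 18675 nt. The RefSeq promoter table (GRCm38.p6, 250 bases before to 50 after each start) held 6 of the 9 genes: C1qb, C1qc, C1ra, C3, Cfd and C7. The promoters of C1qb (chr4:136886151-136886450, minus strand) and C1qc (chr4:136892865-136893164, minus strand) are shown because these genes moved together across libraries. Capitals mark GAGGAA, the core letters bound by the macrophage factor PU.1, searched on both strands and written TTCCTC where the match is on the opposite strand.
C1qb: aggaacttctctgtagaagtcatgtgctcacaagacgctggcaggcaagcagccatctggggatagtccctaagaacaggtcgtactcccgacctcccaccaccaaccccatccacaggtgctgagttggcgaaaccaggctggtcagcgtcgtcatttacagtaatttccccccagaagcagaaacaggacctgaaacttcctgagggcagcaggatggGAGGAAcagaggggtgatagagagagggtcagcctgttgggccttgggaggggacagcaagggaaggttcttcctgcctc
C1qc: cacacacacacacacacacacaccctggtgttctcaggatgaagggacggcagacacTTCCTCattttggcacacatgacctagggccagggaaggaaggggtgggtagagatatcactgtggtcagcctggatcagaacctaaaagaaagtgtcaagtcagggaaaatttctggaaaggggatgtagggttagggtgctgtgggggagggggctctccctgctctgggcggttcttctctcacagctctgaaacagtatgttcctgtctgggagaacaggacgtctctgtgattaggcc

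The match in C1qb began 30 bases before the RefSeq start on the gene's strand, and the match in C1qc lay 193 bases before it on the opposite strand. Among 32851 RefSeq promoters of the same length, 28.3% held GAGGAA on either strand, so such a match is common and describes only the letters. C1ra also held one, 45 bases after its start on the opposite strand. In the same windows TTGCNNAA, a C/EBP motif, was found in C1ra and C3 and in 10.8% of all promoters. TTCNNNGAA, a STAT motif, was found in C1ra and C7 and in 8.30% of all promoters.

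Over the 15 libraries the members spanned a wide range of levels. C1qa averaged 58.2 FPKM, Serping1 54.1 and C1qb 52.7, above C1qc at 34.9 and C3 at 16.6. C1ra averaged 4.16 FPKM, C4b 3.51, Cfd 1.88 and C7 1.11. C1qa lay above 93.4% of all tested genes and C7 above 17.3%. Some neighbours in this order did not hold their place from library to library: C1qa was above Serping1 in 8 of 15 libraries, C1ra above C4b in 11, and Cfd above C7 in 9. C1qb was above C1qc, C1qc above C3, and C3 above C1ra in all 15.

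No member passed the test in any comparison. Of 12267 genes tested with limma, with Benjamini-Hochberg adjustment at 0.05, 0 were called between AngII+QDG and AngII (0% of genes), 1638 between AngII and Control (13.4%) and 2374 between AngII+QDG and Control (19.4%). The members called were 0 of 9 in each. At an unadjusted limma p under 0.05 the counts of members were 1 (Cfd), 2 (Cfd and C7) and 2 (C1qb and C7) in the same order of comparisons. Those of all genes were 578 (4.71%), 3860 (31.5%) and 4163 (33.9%). A second tool, limma voom on recovered fragments, also called 0 members in each comparison, and called 1 gene in all between AngII+QDG and AngII. The libraries of both groups did not overlap for 1 member, Cfd, between AngII+QDG and AngII, where 1.39% of all genes did not overlap. They overlapped for every member between AngII and Control, where 11.1% of genes did not, and between AngII+QDG and Control, where 14.5% did not. The comparisons share groups, and so are not independent of each other.

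In the main fit the median of all genes was shifted between treated and Control libraries. The median log2 change of all genes tested was -0.017 for AngII+QDG against AngII, 0.20 for AngII against Control and 0.18 for AngII+QDG against Control. The members' median was 0.12, -0.27 and 0.09 in the same order, or 0.14, -0.47 and -0.085 relative to all genes. Of the 9 members, 7 had a log2 change below the all-gene median in AngII against Control, and 5 did in AngII+QDG against Control. The all-gene median depended on scaling. For AngII against Control it was -0.014 under quantile scaling and -0.059 under median scaling. For AngII+QDG against Control it was -0.026 and -0.086.

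**Figure D1:**
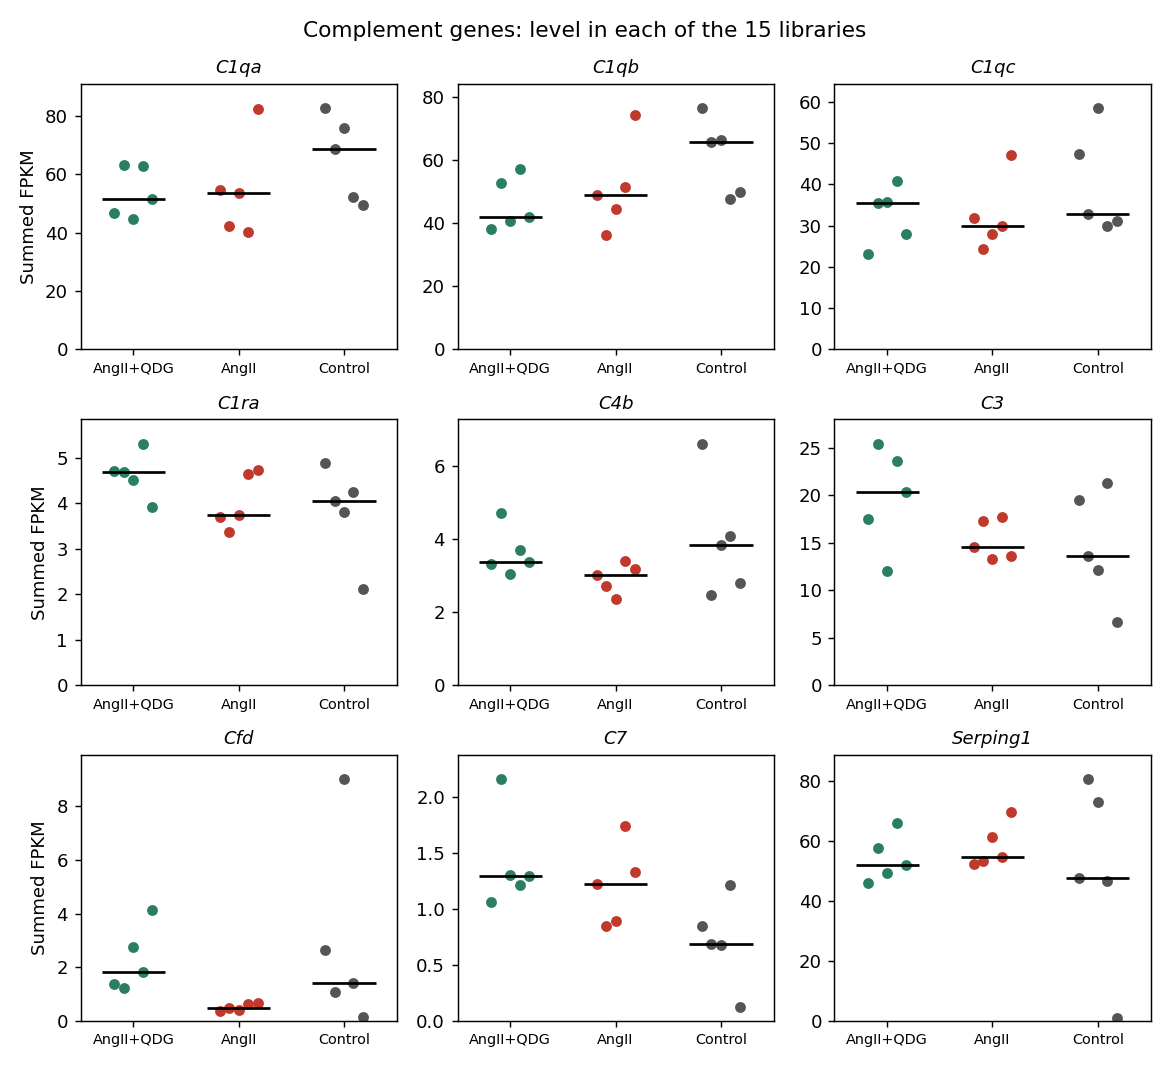
Level of each of the 9 complement genes (summed FPKM, linear axis from 0) in every library, with the 5 libraries of AngII+QDG, AngII and Control from left to right and the group median as a line. The AngII values of Cfd, from 0.38 to 0.66 FPKM, lie below all 5 AngII+QDG values, and Serping1 has 1 Control library at 0.84 FPKM.

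C1qa, C1qb and C1qc encode the subunits of the recognition molecule of the classical pathway. C1qa had 46.8, 63.3, 44.8, 63.0 and 51.5 FPKM in the AngII+QDG hearts, 54.8, 42.3, 53.7, 40.2 and 82.5 in the AngII hearts, and 82.9, 68.6, 76.1, 52.4 and 49.5 in the Control hearts. The groups overlapped: AngII 5 was nearly as high as the highest Control heart, and Control 4 and Control 5 lay within the range of the AngII+QDG hearts. The means were 53.9 ± 8.80 FPKM in AngII+QDG, 54.7 ± 16.9 in AngII and 65.9 ± 14.6 in Control (SD, n = 5 each).

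C1qb had 38.1, 52.6, 40.5, 57.0 and 41.8 FPKM in AngII+QDG, 48.9, 36.1, 44.5, 51.3 and 74.3 in AngII, and 76.5, 65.6, 66.3, 47.7 and 49.9 in Control. AngII 5 was again the highest AngII heart, and 3 of the 5 Control hearts were above every AngII+QDG heart. C1qc had 23.2, 35.5, 35.7, 40.8 and 27.9 FPKM in AngII+QDG, 31.8, 24.4, 28.0, 29.9 and 47.1 in AngII, and 47.4, 32.9, 58.6, 29.8 and 31.1 in Control. Control 1 and Control 3 stood above all AngII+QDG hearts, and the other 3 Control hearts lay within their range. The fragments behind these values numbered from 1462 to 6723 a library and chain, so the spread between hearts is far above counting error.

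For AngII+QDG against AngII the log2 changes were 0.01 ± 0.20 for C1qa, -0.12 ± 0.19 for C1qb and 0.03 ± 0.22 for C1qc (standard errors), with a limma adjusted p of 0.998 for each. The 95% intervals, which are not adjusted over genes, ran from -0.41 to 0.43, from -0.52 to 0.27 and from -0.44 to 0.49. They are not a limit of detection. With 5 hearts a group and adjustment over all genes, larger changes could also have gone uncalled. For AngII against Control the log2 changes were -0.28 ± 0.20, -0.27 ± 0.19 and -0.29 ± 0.22 in the same order of chains (limma adjusted p = 0.334, 0.322 and 0.379). For AngII+QDG against Control they were -0.27 ± 0.20, -0.40 ± 0.19 and -0.26 ± 0.22 (limma adjusted p = 0.353, 0.143 and 0.423). Relative to the median of all genes the chains lay lower, at -0.48, -0.47 and -0.49 for AngII against Control and -0.45, -0.58 and -0.44 for AngII+QDG against Control.

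How the libraries were scaled bears on the C1q values. With every library centred on its median, C1qb in AngII+QDG against Control was -0.66 (limma adjusted p = 0.0245), the 1 setting that called it; over all settings its adjusted p ran up to 0.852. The C1q transcripts have 1040, 1088 and 1203 nt, between the short and the long class of the transcript balance above. With that balance entered as a covariate C1qc turned to 0.12 for AngII against Control and 0.19 for AngII+QDG against Control, and C1qa and C1qb stayed below 0.

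**Figure D2:**
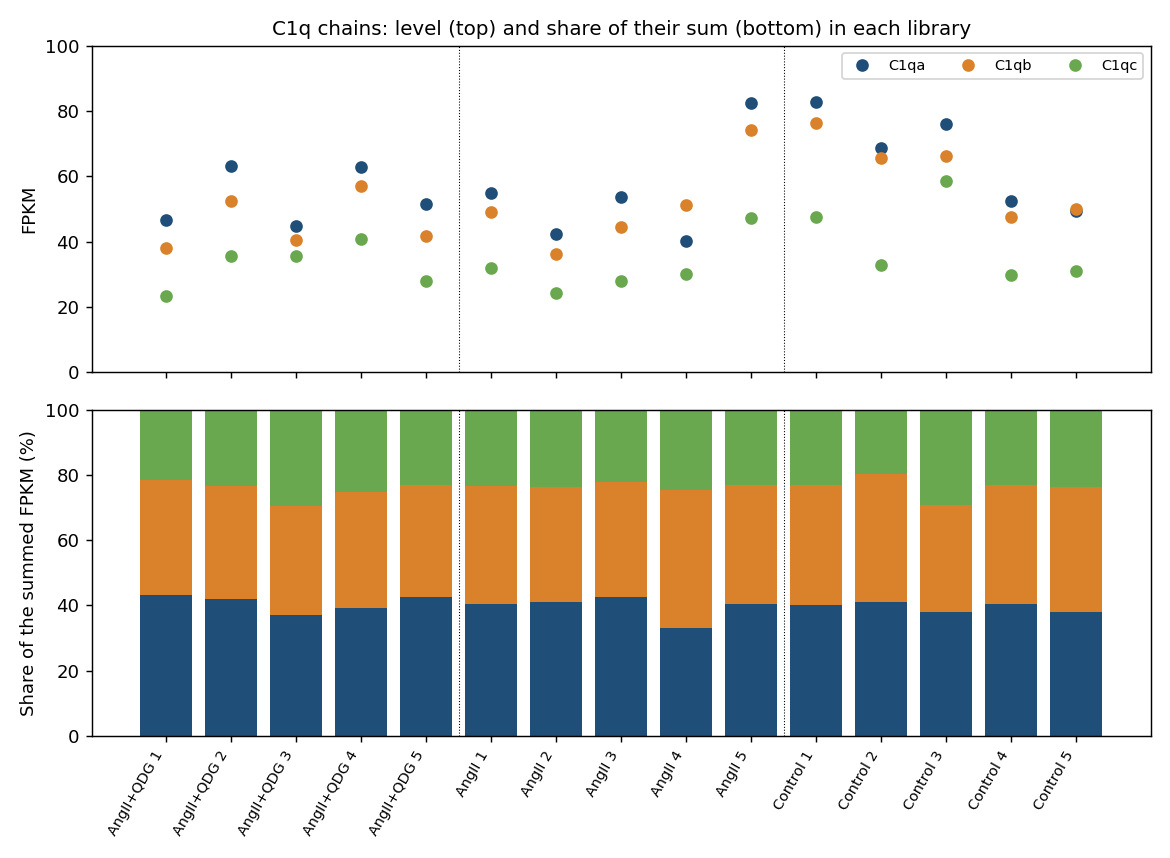
C1qa, C1qb and C1qc in each library, with AngII+QDG, AngII and Control from left to right: FPKM above, and the share (%) of the summed FPKM of the chains below. The chains tend to rise and fall together between libraries, though not from each library to the next. C1qa lies below C1qb only in AngII 4 and, by a small margin, Control 5.

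The proportions of the chains varied moderately between libraries. C1qa held 39.9 ± 2.6% of the summed FPKM of the chains, C1qb 36.2 ± 2.4% and C1qc 23.9 ± 2.6% (SD over 15 libraries). The share of C1qb was 34.7 ± 0.79% in AngII+QDG, 37.0 ± 2.96% in AngII and 36.8 ± 2.38% in Control (SD, n = 5 each). Over all libraries the share of C1qc ran from 19.7% to 29.5%, and C1qa was 1.26 to 2.08 times C1qc in FPKM. AngII 4 had the highest C1qb share, 42.2%, and the lowest C1qa share, 33.1%. None of the 9 comparisons of a chain's share between groups passed adjustment. The smallest p was that of C1qb in AngII+QDG against AngII, a difference of -2.37 percentage points (exact two-sided permutation test, p = 0.0397, adjusted p = 0.357 over 9 tests).

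Within groups the chains varied together from heart to heart. After each library's log2 value was centred on its group, Pearson's r over the 15 libraries was 0.88 for C1qa with C1qb (Spearman's rho 0.85), 0.78 for C1qa with C1qc (rho 0.69) and 0.83 for C1qb with C1qc (rho 0.81). The permutation p for r, with libraries permuted within groups, was 0.00073, 0.0029 and 0.0011, and 0.0022, 0.0044 and 0.0022 after adjustment over the 6 relations computed. For rho the permutation p was 0.00087, 0.01 and 0.0016, adjusted to 0.0049, 0.016 and 0.0049. Without the 2 libraries farthest from the median, r was 0.94, 0.75 and 0.75. The values of a library share its depth and its balance of transcripts.

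Macrophage markers, taken as a sum, moved with C1q across hearts. Such a sum is weighted to its most abundant genes. The summed level of the 15 macrophage markers with values, of 16 on the list, was 92.9 to 122 FPKM in AngII+QDG, 86.4 to 144 in AngII and 91.7 to 132 in Control. Its r with summed C1q, both centred on the group, was 0.89 (rho 0.75, permutation p = 0.00038 and 0.0074, adjusted p = 0.0022 and 0.015), and 0.79 without the 2 farthest libraries, AngII 5 and Control 1. No marker of the list was at 0 in every library of a group. Between groups the markers went different ways. The most abundant were Tyrobp and Fcer1g, signalling adaptors of myeloid cells, and Ctss, a lysosomal protease. Tyrobp averaged 17.6 FPKM in AngII+QDG, 20.04 in AngII and 26.5 in Control, with log2 changes of -0.55 for AngII+QDG and -0.40 for AngII against Control (limma adjusted p = 0.0610 and 0.172). Fcer1g averaged 14.4, 13.5 and 19.8 FPKM in the same groups, with changes of -0.44 and -0.54 (limma adjusted p = 0.139 and 0.0875), and the changes of Ctss were -0.12 and 0.06 (limma adjusted p = 0.715 and 0.870). Values of these adaptors thus lay below Control, as those of C1q did, and did not pass the test. Others rose. Cd163, a scavenger receptor of resident macrophages, averaged 6.21 ± 1.49 FPKM in AngII+QDG, 5.35 ± 0.78 in AngII and 2.97 ± 0.87 in Control, and rose by 0.87 and 0.70 on the log2 scale in AngII+QDG and in AngII against Control (limma adjusted p = 0.00747 and 0.0290). F13a1 and Lyve1, likewise markers of resident macrophages, also rose in both comparisons, and Mrc1 and Mertk rose in AngII+QDG against Control. In all, 3 of the 15 rose and 0 fell in AngII against Control, 5 rose and 0 fell in AngII+QDG against Control, and 0 were called between AngII+QDG and AngII. These are 20% and 33.3% of the list, beside 13.4% and 19.4% of all genes, whose calls were higher in 88.9% and 82.9% of cases. The median log2 change of the list was 0.06 in AngII against Control and -0.11 in AngII+QDG against Control, below the all-gene medians of 0.20 and 0.18. The 5 risers were singled out because they passed the test. The short-against-long balance differed between the same groups. The part of the macrophages and of the balance in the C1q values was not tested.

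C1ra encodes the protease C1r, which C1q activates, and lies at chr6:124512405-124523443. Its level was 4.71, 4.68, 4.51, 5.31 and 3.92 FPKM in AngII+QDG, 3.70, 3.36, 3.75, 4.64 and 4.73 in AngII, and 4.89, 4.06, 3.80, 4.25 and 2.12 in Control. The groups overlapped, and Control 5 was the lowest of all 15 libraries. The log2 change was 0.16 ± 0.16 for AngII+QDG against AngII, 0.09 ± 0.16 for AngII against Control and 0.25 ± 0.16 for AngII+QDG against Control (limma adjusted p = 0.998, 0.744 and 0.289). The value of AngII against Control was -0.17 under both quantile and median scaling and -0.064 without Control 5. C1ra has a near-identical neighbour, C1rb, which was looked for and had no value. How reads common to both were assigned is not known.

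C4b encodes C4, the substrate of C1s, and lies at chr17:34728380-34743882. Its summed level was 3.33, 4.72, 3.05, 3.70 and 3.38 FPKM in AngII+QDG, 3.02, 2.72, 2.36, 3.41 and 3.18 in AngII, and 6.62, 2.46, 3.83, 4.09 and 2.80 in Control. Control 1 stood well above the other libraries, and the rest overlapped. The log2 change was 0.23 ± 0.19 for AngII+QDG against AngII, -0.28 ± 0.19 for AngII against Control and -0.05 ± 0.19 for AngII+QDG against Control (limma adjusted p = 0.998, 0.311 and 0.871).

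The sign of the C4b values against Control depended on which transcript was read. Of the listed transcripts of C4b, the coding transcript ENSMUST00000069507 has 5379 nt and the retained-intron transcript ENSMUST00000173669 has 749 nt. The coding transcript averaged 3.03 ± 0.79 FPKM in AngII+QDG, 2.45 ± 0.62 in AngII and 2.14 ± 1.00 in Control, while the retained-intron transcript averaged 0.60 ± 0.25, 0.49 ± 0.47 and 1.82 ± 0.87 FPKM in the same groups (SD, n = 5 each). The short transcript held a median 17.5% of the gene's FPKM in AngII+QDG, 6.66% in AngII and 45.8% in Control. It rested on 4 to 149 fragments a library. With coding transcripts alone the log2 change of C4b was 0.18 ± 0.22 for AngII against Control and 0.40 ± 0.22 for AngII+QDG against Control (limma adjusted p = 0.597 and 0.213), the opposite sign to the summed values in both comparisons. C4b also has a near-identical copy, C4a, which was looked for and had no value.

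C3 encodes the component on which all activation routes converge and lies at chr17:57203970-57228136. Its level was 17.5, 25.4, 12.1, 23.6 and 20.4 FPKM in AngII+QDG, 14.5, 17.3, 13.3, 17.7 and 13.6 in AngII, and 19.5, 13.6, 12.1, 21.3 and 6.69 in Control. The AngII+QDG hearts included the 3 highest AngII-infused values, yet AngII+QDG 3 lay below all AngII hearts, and Control spanned 6.69 to 21.3. The means were 19.8 ± 5.28, 15.3 ± 2.08 and 14.6 ± 5.90 FPKM in AngII+QDG, AngII and Control (SD, n = 5 each). The log2 change was 0.32 ± 0.26 for AngII+QDG against AngII, 0.14 ± 0.26 for AngII against Control and 0.46 ± 0.26 for AngII+QDG against Control (limma adjusted p = 0.998, 0.736 and 0.224). Without Control 5 the value of AngII against Control was -0.089 and that of AngII+QDG against Control was 0.23.

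Hepatocyte and mesothelial markers were read beside C3. The 12 fibroblast markers summed to 900 to 1280 FPKM in AngII+QDG, 858 to 1263 in AngII and 723 to 1069 in Control. Their correlation with C3 was not computed. Of 8 hepatocyte markers only Ttr had values, from 0.21 to 0.64 FPKM in AngII+QDG, 0.39 to 0.84 in AngII and 0.47 to 0.89 in Control. Of 8 mesothelial markers 3 had values, with a sum of 0.82 to 6.15 FPKM in AngII+QDG, 0.76 to 4.79 in AngII and 0 to 7.73 in Control. The r of C3 with that sum, centred on the group, was 0.63 (rho 0.56, permutation p = 0.05 and 0.069, adjusted p = 0.06 and 0.083), and 0.38 without Control 5 and AngII+QDG 3, so it rested on those libraries. The part of any of these cell types in the C3 values was not tested.

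Cfd encodes factor D, the protease that cleaves factor B in the alternative pathway, and lies at chr10:79890853-79892655. Of the 9 members it had the largest log2 change between AngII+QDG and AngII. Cfd had 1.37, 1.21, 2.76, 1.82 and 4.14 FPKM in AngII+QDG, 0.38, 0.48, 0.42, 0.62 and 0.66 in AngII, and 2.66, 1.09, 9.0, 1.41 and 0.13 in Control. Every AngII+QDG heart was above every AngII heart. Of the Control hearts 4 were above every AngII heart and Control 5 was below them all.

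The log2 change of Cfd was 1.04 ± 0.43 for AngII+QDG against AngII (95% interval 0.12 to 1.95), with a limma p of 0.0291 that did not pass adjustment over all genes (adjusted p = 0.970). It was -0.95 ± 0.43 for AngII against Control (adjusted p = 0.147 with limma) and 0.09 ± 0.43 for AngII+QDG against Control (adjusted p = 0.899 with limma). A few libraries and the scale decided these sizes. With a pseudocount of 0.1 the value of AngII+QDG against AngII was 1.82, and with voom on recovered fragments 1.95 (limma adjusted p = 0.9995 and 0.9994). Without Control 3 the value of AngII against Control was -0.50, without Control 5 it was -1.29, and without AngII+QDG 5 the value of AngII+QDG against AngII was 0.85. The AngII+QDG against AngII value was above 0 in all 30 alternatives. That sign could hardly change, as the groups did not overlap, and leaving out a Control library left the value at 1.04. The limma adjusted p was 0.337 or more in each alternative.

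**Figure D3:**
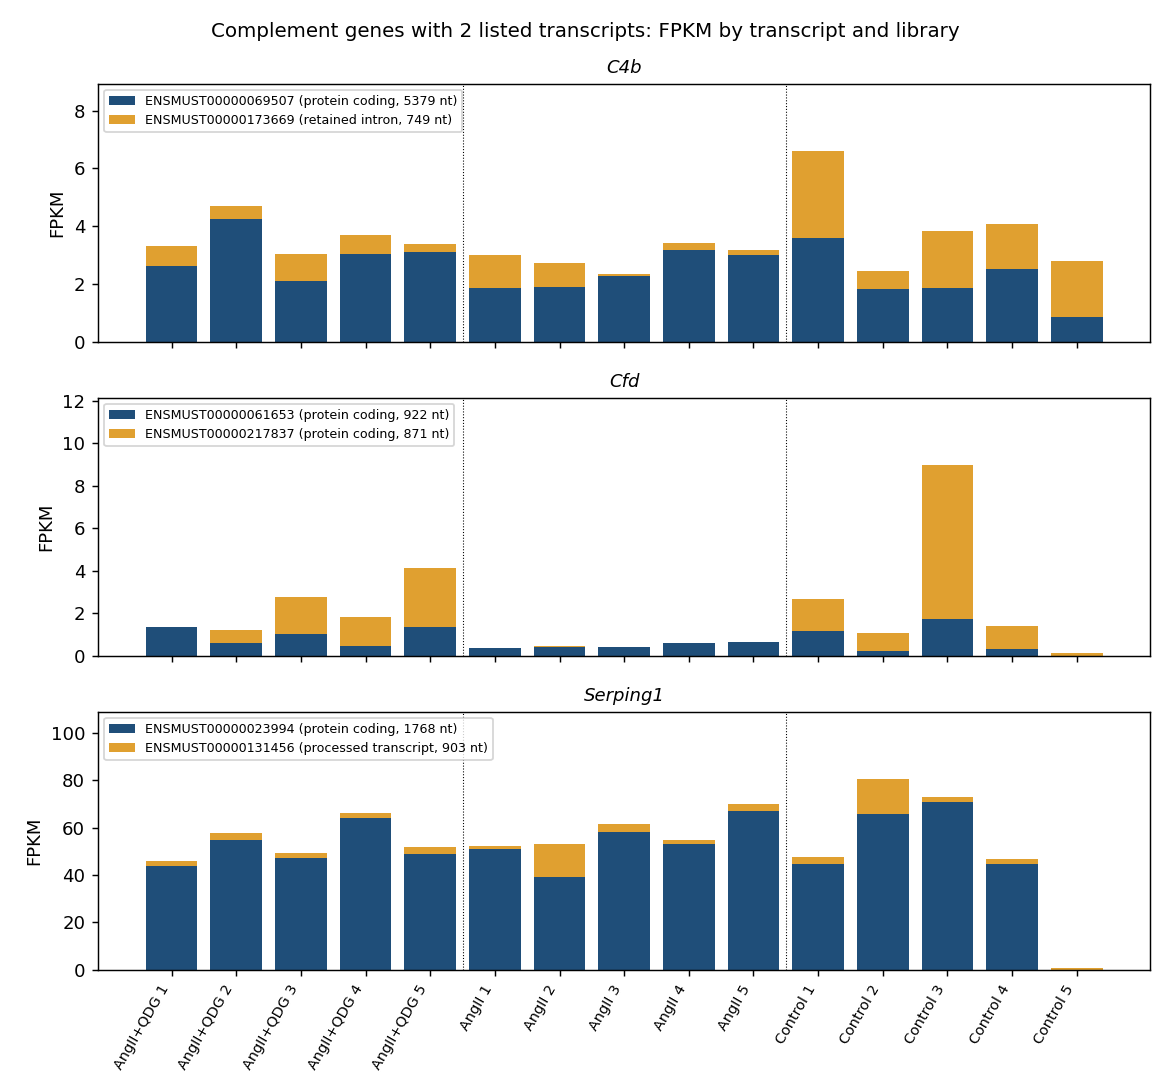
FPKM of each listed transcript (stacked bars) of C4b, Cfd and Serping1 in every library, with AngII+QDG, AngII and Control from left to right. The 871 nt transcript of Cfd is listed at 0 in 4 of 5 AngII libraries, the retained-intron transcript of C4b is largest in Control, and the coding transcript of Serping1 is listed at 0 in Control 5.

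Both listed transcripts of Cfd are coding, with 922 nt (ENSMUST00000061653) and 871 nt (ENSMUST00000217837). The shorter was listed at 0 in 4 of 5 AngII libraries and in AngII+QDG 1, and had 0.62, 1.73, 1.33 and 2.77 FPKM in the other AngII+QDG libraries. In Control it had 1.49, 0.85, 7.27, 1.09 and 0.13 FPKM. The longer averaged 0.97 ± 0.42 FPKM in AngII+QDG and 0.50 ± 0.13 in AngII (SD, n = 5 each), and in Control it had 1.17, 0.25, 1.73 and 0.33 FPKM and was listed at 0 in Control 5. The transcripts differ by few bases, and the fragments behind the gene numbered only 8 to 536 a library.

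Fat is a main source of factor D, so adipocyte markers were read beside Cfd. Of 8 adipocyte markers, Car3, Fabp4 and Pparg had values. Fabp4, which heart endothelium also expresses, made up nearly all of their sum, which was 517 to 792 FPKM in AngII+QDG, 569 to 826 in AngII and 468 to 737 in Control. The r of Cfd with this sum, centred on the group, was 0.10 (rho -0.10, permutation p = 0.78 and 0.74, adjusted p = 0.78 and 0.74), and -0.28 without the 2 farthest libraries.

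Car3, a carbonic anhydrase abundant in adipocytes, had 0.72, 0.48, 0.71, 0.70 and 1.53 FPKM in AngII+QDG, 0, 0.17, 0.15, 0.13 and 0.36 in AngII, and 0.65, 0.36, 3.05, 0.46 and 0.46 in Control. As with Cfd, every AngII+QDG heart was above every AngII heart, which held for 1.39% of all genes in either direction, and Control 3 was the highest of all. The log2 change of Car3 was 0.64 ± 0.25 for AngII+QDG against AngII and -0.64 ± 0.25 for AngII against Control (limma adjusted p = 0.942 and 0.0967). The other adipocyte genes did not share this. The log2 change of Pparg, a regulator of fat cell formation, was -0.58 ± 0.50 for AngII+QDG against AngII and 0.83 ± 0.50 for AngII against Control, and that of Fabp4 was -0.15 ± 0.15 and 0.06 ± 0.15 (limma adjusted p of 0.268 or more for each). Car3 was singled out from the marker list after its values were seen, and the part of fat in the Cfd values was not tested.

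C7 encodes a component of the membrane attack complex and lies at chr15:4988762-5063740. Its level was 1.06, 2.15, 1.30, 1.21 and 1.29 FPKM in AngII+QDG, 1.22, 0.84, 0.89, 1.74 and 1.33 in AngII, and 0.85, 0.68, 0.68, 1.21 and 0.12 in Control. AngII+QDG 2 was the highest heart. Control 5 was the lowest and rested on 24 fragments, and Control 4 lay within the range of both other groups. The log2 change was 0.12 ± 0.18 for AngII+QDG against AngII, 0.38 ± 0.18 for AngII against Control and 0.51 ± 0.18 for AngII+QDG against Control (limma adjusted p = 0.998, 0.151 and 0.0566). Without Control 4, whose value was the highest of its group, C7 passed in AngII+QDG against Control, at 0.61 (limma adjusted p = 0.0226). Without Control 5 the value was 0.36 and under quantile scaling 0.26, while a pseudocount of 0.1 gave 1.06 and voom on recovered fragments 1.29 (limma adjusted p = 0.0761 and 0.0717). Relative to the median of all genes it was 0.33.

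Serping1 encodes C1 inhibitor, which inactivates C1r and C1s, and lies at chr2:84765387-84775444. Its level was 46.1, 57.6, 49.2, 66.1 and 52.0 FPKM in AngII+QDG, 52.3, 53.2, 61.4, 54.8 and 69.8 in AngII, and 47.7, 80.6, 73.1, 46.8 and 0.84 in Control. Apart from Control 5 all hearts lay between 46.1 and 80.6 FPKM and the groups overlapped. In Control 5 the coding transcript ENSMUST00000023994, of 1768 nt, was listed at 0, while it had 44.6 to 70.9 FPKM in the other Control libraries. The log2 change was -0.11 ± 0.76 for AngII+QDG against AngII, 0.96 ± 0.76 for AngII against Control and 0.85 ± 0.76 for AngII+QDG against Control (limma adjusted p = 0.998, 0.405 and 0.462). Without Control 5 the values were -0.11 ± 0.16, -0.054 ± 0.17 and -0.16 ± 0.17, so that library decided both the sign and the error of the Serping1 values against Control.

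**Figure D4:**
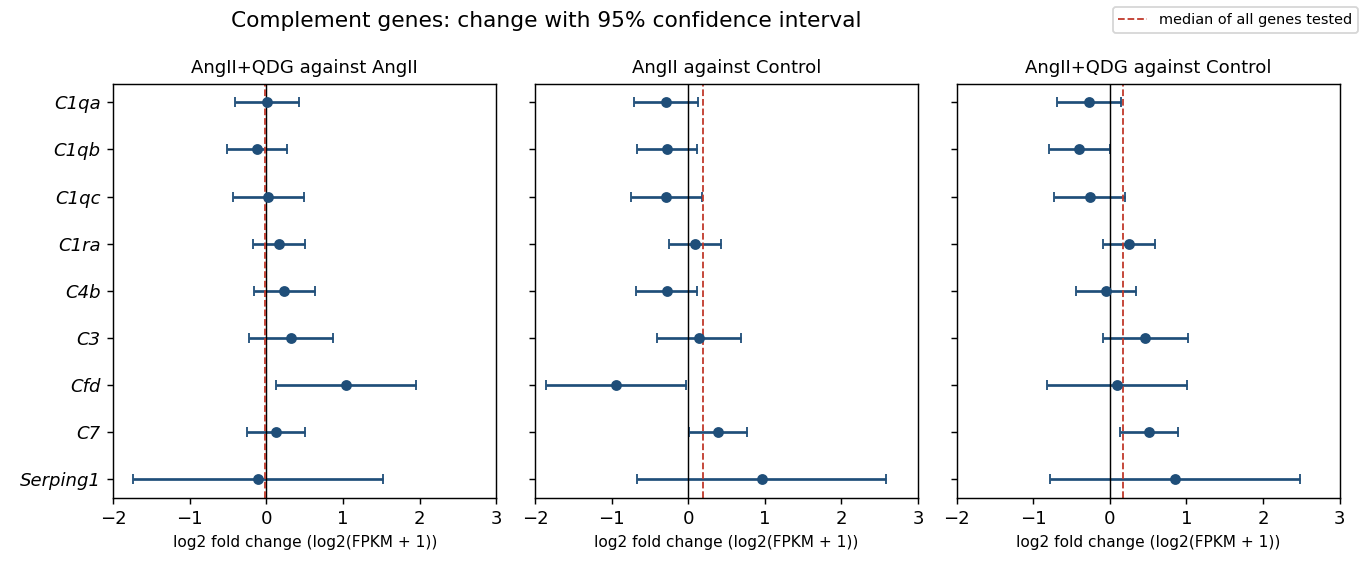
Log2 fold change of each of the 9 complement genes on the log2(FPKM + 1) scale with its 95% confidence interval, for AngII+QDG against AngII, AngII against Control and AngII+QDG against Control from left to right. The dashed line is the median of all genes tested, -0.017, 0.20 and 0.18, and the widest intervals are those of Serping1 and Cfd.

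The other complement genes on the lists numbered 51, of which 24 had values and 23 were tested. Of these 23, 0 were called between AngII+QDG and AngII, 2 rose and 1 fell in AngII against Control, and 1 rose and 1 fell in AngII+QDG against Control. The calls were 13.04% and 8.70% of the 23 genes in the comparisons with Control, beside 13.4% and 19.4% of all genes, so the first share was near that background and the second below it. Their median log2 change was -0.03, 0.07 and 0.08 in that order of comparisons, beside -0.017, 0.20 and 0.18 for all genes. These calls rested on single libraries and settings: with 1 library left out the counts ran from 0 to 2 in AngII against Control and from 0 to 2 in AngII+QDG against Control, and without Control 3 and Control 5 both were 0.

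Of the genes that start the classical and lectin pathways, 5 of 15 were tested and 1 was called. Colec12, a scavenger receptor with a collectin domain, had 3.08, 2.42, 2.96, 3.09 and 3.91 FPKM in AngII+QDG, 2.44, 3.58, 2.77, 3.10 and 3.91 in AngII, and 2.32, 2.33, 1.63, 2.30 and 1.61 in Control. All 10 AngII-infused hearts were above all 5 Control hearts. Groups did not overlap for 11.1% of all genes in AngII against Control and 14.5% in AngII+QDG against Control. It rose by 0.43 in AngII+QDG and by 0.45 in AngII against Control on the log2 scale (limma adjusted p = 0.0414 and 0.0457). Colec11 averaged 10.2 ± 3.39, 10.8 ± 5.33 and 12.01 ± 4.02 FPKM in AngII+QDG, AngII and Control, and C1s1, the partner protease of C1r, 5.74 ± 2.79, 6.36 ± 4.26 and 3.92 ± 2.40 (SD, n = 5 each). Masp1, a lectin pathway protease, averaged 3.67 ± 0.89, 4.34 ± 0.86 and 4.27 ± 1.28 FPKM, and none of these 3 was called in any comparison.

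Both other alternative pathway genes were low and uncalled. Cfp, which encodes properdin, averaged 1.33 ± 0.50 FPKM in AngII+QDG, 1.29 ± 0.62 in AngII and 1.96 ± 0.84 in Control, and Cfb, which encodes factor B, 0.45 ± 0.42, 0.46 ± 0.32 and 0.70 ± 0.23 (SD, n = 5 each). Of the 6 other terminal pathway genes only C8g was tested, at 1.57 ± 0.26 FPKM in AngII+QDG, 1.71 ± 0.38 in AngII and 1.85 ± 0.47 in Control (SD, n = 5 each), and it was not called.

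Of 16 other regulators 7 were tested and 2 were called. Vtn encodes vitronectin, which blocks insertion of the membrane attack complex. It had 14.1, 12.1, 17.5, 18.7 and 13.5 FPKM in AngII+QDG, 20.8, 14.9, 21.9, 19.9 and 26.7 in AngII, and 18.3, 31.1, 22.8, 23.0 and 20.3 in Control. AngII+QDG was mostly the lowest group, though AngII+QDG 4 lay above Control 1. Vtn fell by 0.57 on the log2 scale in AngII+QDG against Control (limma adjusted p = 0.0304), and its log2 change was -0.43 ± 0.17 in AngII+QDG against AngII (limma adjusted p = 0.947).

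Cd59b, a paralog of Cd59a, fell by 0.57 on the log2 scale in AngII against Control (limma adjusted p = 0.0490). It averaged 4.61 ± 1.56 FPKM in AngII+QDG, 3.47 ± 0.52 in AngII and 5.64 ± 0.72 in Control (SD, n = 5 each). All 5 AngII hearts were below all Control hearts, in a comparison where 11.1% of all genes did not overlap in either direction. Reads shared by Cd59a and Cd59b could have been split between them, and these values are uncertain.

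Clu and Cd59a, among the most abundant of the other regulators, swung between libraries of the same group. Clu, which encodes the fluid-phase inhibitor clusterin, ranged from 36.3 to 269 FPKM in AngII+QDG, from 33.2 to 220 in AngII and from 33.8 to 208 in Control. Cd59a, which encodes an inhibitor of the membrane attack complex, reached 68.4 FPKM in Control 5 and at most 16.1 in the other Control libraries. In the 4 libraries where Cd59a was highest, from 47.9 to 68.4 FPKM, its second transcript was listed at 0. In Clu a second transcript took over most of the gene's FPKM in some libraries. Neither gene was called.

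Of 12 receptors and C1q-binding proteins 8 were tested and 1 was called. Cd93, a transmembrane protein once described as a C1q receptor and found on endothelium, averaged 9.24 ± 2.16 FPKM in AngII+QDG, 11.7 ± 3.34 in AngII and 6.86 ± 1.69 in Control (SD, n = 5 each). It rose by 0.68 on the log2 scale in AngII against Control (limma adjusted p = 0.0416). All AngII hearts were above all Control hearts, in a comparison where 11.1% of all genes did not overlap in either direction. The change of Cd93 in AngII+QDG against Control was 0.39 ± 0.20 (limma adjusted p = 0.196). C1qbp averaged 94.0 ± 8.05 FPKM in AngII+QDG, 97.8 ± 3.50 in AngII and 92.0 ± 13.9 in Control, and Calr, which encodes calreticulin, 77.9 ± 15.2, 82.6 ± 5.82 and 73.7 ± 22.5. Lrp1, an endocytic receptor that also binds C1q, averaged 9.31 ± 6.44, 10.2 ± 9.52 and 4.30 ± 1.02 FPKM, with 20.5 FPKM in AngII+QDG 2 and 27.2 in AngII 1. In those libraries its 763 nt retained-intron transcript had 14.3 and 21.5 FPKM. None of these 3 was called.

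For each member the most similar patterns were looked for among the 9307 genes averaging 1 FPKM or more, by Pearson's r of log2 values centred on the group over the 15 libraries, as a description without a test. For C1qa the closest were C1qb (r = 0.88), Fcgr3 (0.88), an Fc receptor of myeloid cells, and Phf11d (0.86). For C1qb they were Slfn2 (0.94), Igfbp4 (0.92) and Nrgn (0.91), and for C1qc Manf (0.91), Ptpn18 (0.89) and Psmb8 (0.88). For C3 they were Srsf6 (0.88), Srpk2 (0.87) and Carm1 (0.87), and for C4b Ifit3 (0.86), Lrrc25 (0.86) and Fam69a (0.83). For Cfd they were Ndufaf7 (0.89), Scd1 (0.84), a lipid desaturase abundant in fat, and Serbp1 (0.83).

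Control 5 held a part of several likenesses. For Serping1 the closest were Vezt (0.98), Ccdc174 (0.98) and Sbds (0.98). In Control 5 they had 0.44, 0.022 and 3.70 FPKM, against at least 4.33, 2.91 and 22.6 FPKM in every other library. For C1ra the closest were Cd300ld (0.94), Tmem43 (0.94) and Atf6b (0.93), and for C7 Zpr1 (0.91), Sh3kbp1 (0.90) and Anapc7 (0.90). All 6 were lowest in Control 5, as were the 3 named for C3 and the 3 named for Cfd, and as were C1ra, C7, C3 and Cfd themselves. Over the 14 libraries without Control 5 the r with the same genes was 0.22 to 0.53 for Serping1, 0.82 to 0.86 for C1ra, 0.84 for each gene of C7, 0.74 to 0.84 for C3 and 0.73 to 0.83 for Cfd. For C1qa, C1qb, C1qc and C4b it was 0.83 to 0.94.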

How the data were processed

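Per the labels' protocols, Trizol RNA from 15 hearts was freed of rRNA before NEB library construction. The authors deposited 1 table per library with a value per transcript, read here as FPKM. The headers do not state the unit, which was inferred because value times length summed to nearly the same total in every library. The genome build GRCm38 and limma are named in the submitters' processing notes, while aligner and quantifier were not given in the sources used here. Nothing states that strand was kept, so reads of overlapping genes cannot be told apart.

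Transcripts were named with GENCODE M21 (24756 of 24789 Ensembl transcripts) and summed per gene. Another 8634 assembled transcripts without an Ensembl name entered no gene's sum, so fragments assigned to them are not in the levels given. The AngII+QDG files held 31734 transcripts and the files of the other groups 31685, with 29996 shared, and sums over shared transcripts were an alternative. Values times length lay within 0.1 of whole multiples of a step for 97.1 to 97.2% of transcripts, which gave the depth of 51.6 to 78.3, in units of 1000000.

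The genes past the filter (0.5 FPKM or more in 5 or more libraries) entered 1 limma fit (3.58.1, R 4.3.3) of all 15 libraries on log2(FPKM + 1), with intensity trend, robust variance and 12 residual degrees of freedom, two-sided, and Benjamini-Hochberg adjustment over 12267 genes. This scale understates the change of low genes. Library measures and C1q shares went through exact permutation tests (two-sided, 252 arrangements), and correlations through 100000 permutations within groups. Alternatives covered the pseudocount, filter, scaling, groups fitted, replicate block, array weights, shared or coding transcripts, length balance, omitted libraries and limma voom on recovered fragments. The fit was also run on simulated data with independent noise for each gene. Those data held no library effects, so that run does not bear on the differences between libraries. Tables and plots used Python 3.11.15, numpy 2.4.6, pandas 2.3.3, scipy 1.17.1 and matplotlib 3.10.9.

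The 9 members and the lists were chosen with earlier results of these data known. Named were all members, every other complement gene called in any comparison, up to 4 tested genes with the highest mean in each other complement list, up to 3 genes of a marker list, the called macrophage markers (added after their values were seen), and for each member the 3 most similar genes. One gene that this rule names is not reported here.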

Additional observations from a re-analysis of the deposited data

Results flagged for a closer look

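A single heart stood far from the others of its group for 2 of the 27 combinations of member and group examined with Dixon's criterion for 5 samples (0.71 of the group's range), where chance gives about 1 in 20. Cfd, the factor D gene, had 9.0 FPKM in Control 3, with a gap to the next Control heart of 0.715 of the range. Car3 was also highest in that heart, at 3.05 FPKM. C7, of the membrane attack complex, had 2.15 FPKM in AngII+QDG 2, with a gap of 0.777 of the range. Without AngII+QDG 2 the log2 change of C7 in AngII+QDG against AngII was 0.021, beside 0.12 with it.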

How the results depend on the processing

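Over 30 alternatives, 762 of the 810 log2 values of single members kept their sign and stayed uncalled, and 46 changed sign uncalled. Another 2 became called (C1qb with median scaling, C7 without Control 4). With no member called in the main fit, there was no call to reverse. Some alternatives could not move a value, as when a Control library was left out for AngII+QDG against AngII. The count of members called in AngII+QDG against Control, 0, became 1 with median scaling and ran from 0 to 1 with a library left out. The cause of the changes below was not tested.

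The count of all genes called in AngII against Control, 1638, became 819 with quantile scaling, 1076 with median scaling, 317 with only both groups fitted, 516 with the replicate block, 97 without Control 3 and Control 5, 0 with length balance as a covariate, 342 with the length trend removed, and 316 (without AngII 2) to 2484 (without Control 4) with a library left out. For AngII+QDG against Control, 2374 became 1438 with both groups only, 1199 without Control 3 and Control 5, 0 with the covariate, 1308 with the trend removed, and 1452 (without AngII+QDG 1) to 3022. For AngII+QDG against AngII, 0 became 1 with a pseudocount of 0.1, array weights, the covariate or voom, and ran from 0 to 1. The share of calls that were higher was 88.9% in AngII against Control (49.6% with quantile and 33.6% with median scaling) and 82.9% in AngII+QDG against Control (49.6% and 32.7%).

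For the other complement genes, C1q shares and library measures the alternatives were chosen after seeing the data. Calls among the other complement genes in AngII against Control, 3, became 1 with quantile scaling, median scaling, array weights or coding transcripts, 0 with both groups only, the replicate block, the covariate, the trend removed or without Control 3 and Control 5, and ran from 0 to 2. In AngII+QDG against Control, 2 became 1 with array weights, the trend removed or coding transcripts, 0 with both groups only, the replicate block, the covariate or without Control 3 and Control 5, and ran from 0 to 2.

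C1q shares in AngII against Control, in percentage points and uncalled throughout, were -0.95, -0.60 and 1.55 for C1qa, C1qb and C1qc without Control 3 and Control 5. With a library left out they ran from -0.67 to 1.70, -1.09 to 0.82 and -1.30 to 1.07. In AngII+QDG against AngII, C1qa ran from -0.38 to 2.16 and C1qc from -0.095 to 1.92, and in AngII+QDG against Control C1qc ran from -0.39 to 2.21. Without Control 3 and Control 5 the short-minus-long balance was -0.27 for AngII+QDG and -0.23 for AngII against Control, and the share of transcripts at 0 was -3.55 and -3.14 points, all with adjusted permutation p above 0.05, though 3 of these 4 had the smallest p that 56 arrangements can give, 0.0179. With a library left out that share ran from -7.45 to -4.04 points in AngII against Control, and the balance from -0.056 to 0.0038 in AngII+QDG against AngII.

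Replicate numbers showed no sign of pairing the samples over all genes, which cannot exclude a pairing that moves few genes. Over 15 same-numbered pairs of libraries the correlation of deviations from the group means ran from -0.096 to 0.087, 0 pairs were over 0.1, and 2 libraries were closest to their own number. The replicate block changed no member's call. Depth limits Cfd, C7 and the short C4b transcript most, with as few as 8, 24 and 4 fragments a library.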
